A study of Mus musculus with 4 samples.

Results

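The genes described here are 46 genes of the cell division cycle, chosen by name rather than by measured values and all present in the gene table of the deposited matrices, which holds 32285 genes. Of them, 18 are S phase genes, 24 are G2/M genes, and 4 (Stmn1, Hmgb2, Tubb5 and H2afz) are abundant genes that dividing cells raise but that belong to no single phase. They were measured in single-cell RNA libraries of mouse tumors, with 1 library for each of 4 groups: wild-type (WT) hosts with B16F10 tumors, Lrrc25-/- hosts with B16F10 tumors, WT hosts with MC38 tumors and Lrrc25-/- hosts with MC38 tumors. Lrrc25 encodes a leucine-rich repeat membrane protein of myeloid cells, B16F10 is a mouse melanoma line and MC38 a mouse colon carcinoma line. The genotype is that of the host, no treatment was given, and neither the construction of the deletion nor the age of the mice is stated in the sources used here. B16F10 tumors were taken on day 14 and MC38 tumors on day 26, and each library pooled 100 mm3 from the tumor of each of 3 mice. Bead-isolated CD45+ cells had been combined with unsorted suspension 5:1, so the numbers of immune and tumor cells are not those of the tumor.

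A dividing cell first licenses origins and copies its DNA in S phase, which calls for the MCM helicase, the sliding clamp and enzymes that supply nucleotides. It then condenses and separates its chromosomes in G2 and mitosis under cyclin-dependent kinase 1, Polo-like and Aurora kinases, and the anaphase-promoting complex ends mitosis by having the cyclins destroyed. S phase genes are largely switched on by E2F factors, and many G2/M genes by a complex with B-Myb and FoxM1 that acts through an element called the CHR. Many G2/M promoters also hold CCAAT boxes. In tumors, division of T and NK cells accompanies their activation, and tissue macrophages can also divide in place.

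Matches to elements of these 2 programs and to CCAAT stand upstream of some members, and 4 promoters that hold such matches are shown. They are Mcm5 and Mcm6 for S phase, and Mki67 and Top2a, from which cells were called cycling below, for G2/M. Most S genes held no E2F match and most G2/M genes no CHR, as counted below. Each sequence is the 250 bases before the RefSeq gene start on GRCm38.p6, read 5′ to 3′ in the direction of the gene. Capitals mark matches on either strand to an E2F site (TTTCCCGC or TTTGGCGC), to CCAAT and to the CHR (TTTGAA). The windows are chr8:75109259-75109508 on the plus strand for Mcm5, chr1:128359706-128359955 on the minus strand for Mcm6, chr7:135716380-135716629 on the minus strand for Mki67 and chr11:99024190-99024439 on the minus strand for Top2a.
Mcm5: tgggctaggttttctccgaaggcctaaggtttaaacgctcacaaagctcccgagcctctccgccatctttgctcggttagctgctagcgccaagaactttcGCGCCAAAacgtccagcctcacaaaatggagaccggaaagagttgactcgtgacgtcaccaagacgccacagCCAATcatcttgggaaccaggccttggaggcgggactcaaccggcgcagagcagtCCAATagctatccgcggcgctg
Mcm6: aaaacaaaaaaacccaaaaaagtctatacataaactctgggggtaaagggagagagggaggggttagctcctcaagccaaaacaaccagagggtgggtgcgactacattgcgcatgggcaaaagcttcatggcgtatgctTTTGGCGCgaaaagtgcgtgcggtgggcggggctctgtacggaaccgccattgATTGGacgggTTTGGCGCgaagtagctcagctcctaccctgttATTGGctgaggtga
Mki67: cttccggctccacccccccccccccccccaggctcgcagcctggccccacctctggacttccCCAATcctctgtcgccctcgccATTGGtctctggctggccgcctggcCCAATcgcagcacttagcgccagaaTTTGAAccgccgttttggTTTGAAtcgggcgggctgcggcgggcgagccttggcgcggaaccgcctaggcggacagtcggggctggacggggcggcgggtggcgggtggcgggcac
Top2a: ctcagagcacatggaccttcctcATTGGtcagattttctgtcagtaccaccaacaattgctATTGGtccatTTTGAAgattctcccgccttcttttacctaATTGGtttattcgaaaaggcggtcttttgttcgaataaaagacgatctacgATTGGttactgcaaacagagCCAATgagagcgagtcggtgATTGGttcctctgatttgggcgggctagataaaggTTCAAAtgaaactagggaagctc

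Mcm5 and Mcm6 hold 1 and 2 E2F matches and no CHR, while Mki67 and Top2a hold no E2F match and 2 CHR matches each, beside 3 and 6 CCAAT boxes. A window was found for 37 of the 46 members, among them 15 S and 20 G2/M genes. These members had 40 windows in all, and a gene was counted when any of its windows held a match. An E2F match stood in 4 of the 15 S genes (26.7%) and in 0 of the 20 G2/M genes, against 1.51% of all 27025 genes. CCAAT stood in 18 of 20 G2/M genes (90%) and 9 of 15 S genes (60%), against 37.5% of all genes. The CHR stood in 8 of 20 G2/M genes (40%) and 1 of 15 S genes (6.67%), against 18.3%. CCAAT and the CHR stood together in 8 of 20 G2/M genes against 6.45% of all. A match is a run of letters, not a shown binding site.

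The libraries held 10490 to 18545 barcodes and 105338548 to 138841749 UMIs (unique molecular identifiers, each standing for 1 captured RNA molecule), and 9319 to 15792 cells were kept. Cells were assigned to classes by marker gates that used no member. Of kept cells, 27.7% (WT B16F10) to 43.2% (Lrrc25-/- B16F10) fell into no gate, and 2.74% to 3.22% carried a barcode also found in another library. Every gate needed a minimum of total UMIs, so shallow cells fell into no gate whatever their markers. Lrrc25 measured 164 CPM (UMIs per 1e6 UMIs of the class) in WT B16F10 macrophages against 4.95 in the Lrrc25-/- pool, and 94.1 against 2.10 in MC38, which matches the labels. Levels are CPM of the summed UMIs of a class in a library. Each genotype has 1 pool within a tumor model, so differences there have no replicate check, and intervals (95%, exact) cover counting error only.

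Every class gated carried member RNA, at levels that differed by class and by tumor model. In the order WT B16F10, Lrrc25-/- B16F10, WT MC38 and Lrrc25-/- MC38, Mki67, the nuclear antigen of cycling cells, measured 58.7, 52.4, 104 and 95.3 CPM in macrophages. In CD8 T cells it measured 36.9, 51.5, 344 and 250 CPM, in Treg cells 123, 109, 470 and 302 CPM, and in NK cells 32.4, 27.3, 147 and 84.0 CPM. Both MC38 libraries stood above both B16F10 libraries in each of these 4 classes. Mki67 was at 29.2 and 29.5 CPM in the melanoma cells of the WT and Lrrc25-/- pools and at 306 and 264 CPM in the MC38 tumor cells.

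Top2a, the topoisomerase that untangles sister chromatids, followed the same order of models. It measured 66.5, 52.8, 167 and 150 CPM in macrophages, 92.6, 107, 504 and 301 CPM in CD8 T cells, 245, 225, 482 and 317 CPM in Treg cells and 32.4, 67.2, 211 and 147 CPM in NK cells. In tumor cells it measured 85.0 and 79.3 CPM in melanoma and 883 and 707 CPM in MC38. Pcna, the sliding clamp of replication, did not follow that order. It stood at 283, 225, 143 and 112 CPM in macrophages, higher in both B16F10 libraries, and at 202, 194, 248.5 and 185 CPM in CD8 T cells, where the models overlapped. Pcna measured 289, 226, 251 and 203 CPM in Treg cells, 153, 143, 200 and 139.1 CPM in NK cells, 264 and 265 CPM in melanoma and 249.04 and 226 CPM in MC38 tumor cells. Mcm5, a subunit of the replicative helicase, stood at 46.0, 37.98, 26.5 and 20.8 CPM in macrophages and 37.5, 61.6, 42.1 and 32.8 CPM in CD8 T cells. Mcm5 was at 61.3, 70.8, 43.8 and 45.6 CPM in Treg cells, 32.4, 46.2, 40.2 and 26.1 CPM in NK cells, 62.9 and 63.6 CPM in melanoma and 87.4 and 85.6 CPM in MC38 tumor cells. Neutrophils, which do not divide in tissue, gave a floor: their 18 S genes together reached 67.3 to 151 CPM and their 24 G2/M genes 116 to 350 CPM over the 4 libraries, from 39 to 200 cells and as few as 8 UMIs. By gene, neutrophils had Mki67 at 0 to 54.9 CPM (13 UMIs at most), Top2a at 0 to 33.8, Pcna at 12.6 to 72.8 and Mcm5 at 0 to 12.6 CPM. The Mki67 levels of Lrrc25-/- B16F10 macrophages, B16F10 CD8 T cells, B16F10 NK cells and melanoma cells lie inside that range. The top of the range came from the Lrrc25-/- MC38 neutrophils, so these B16F10 levels are set against an MC38 pool.

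**Figure D1:**
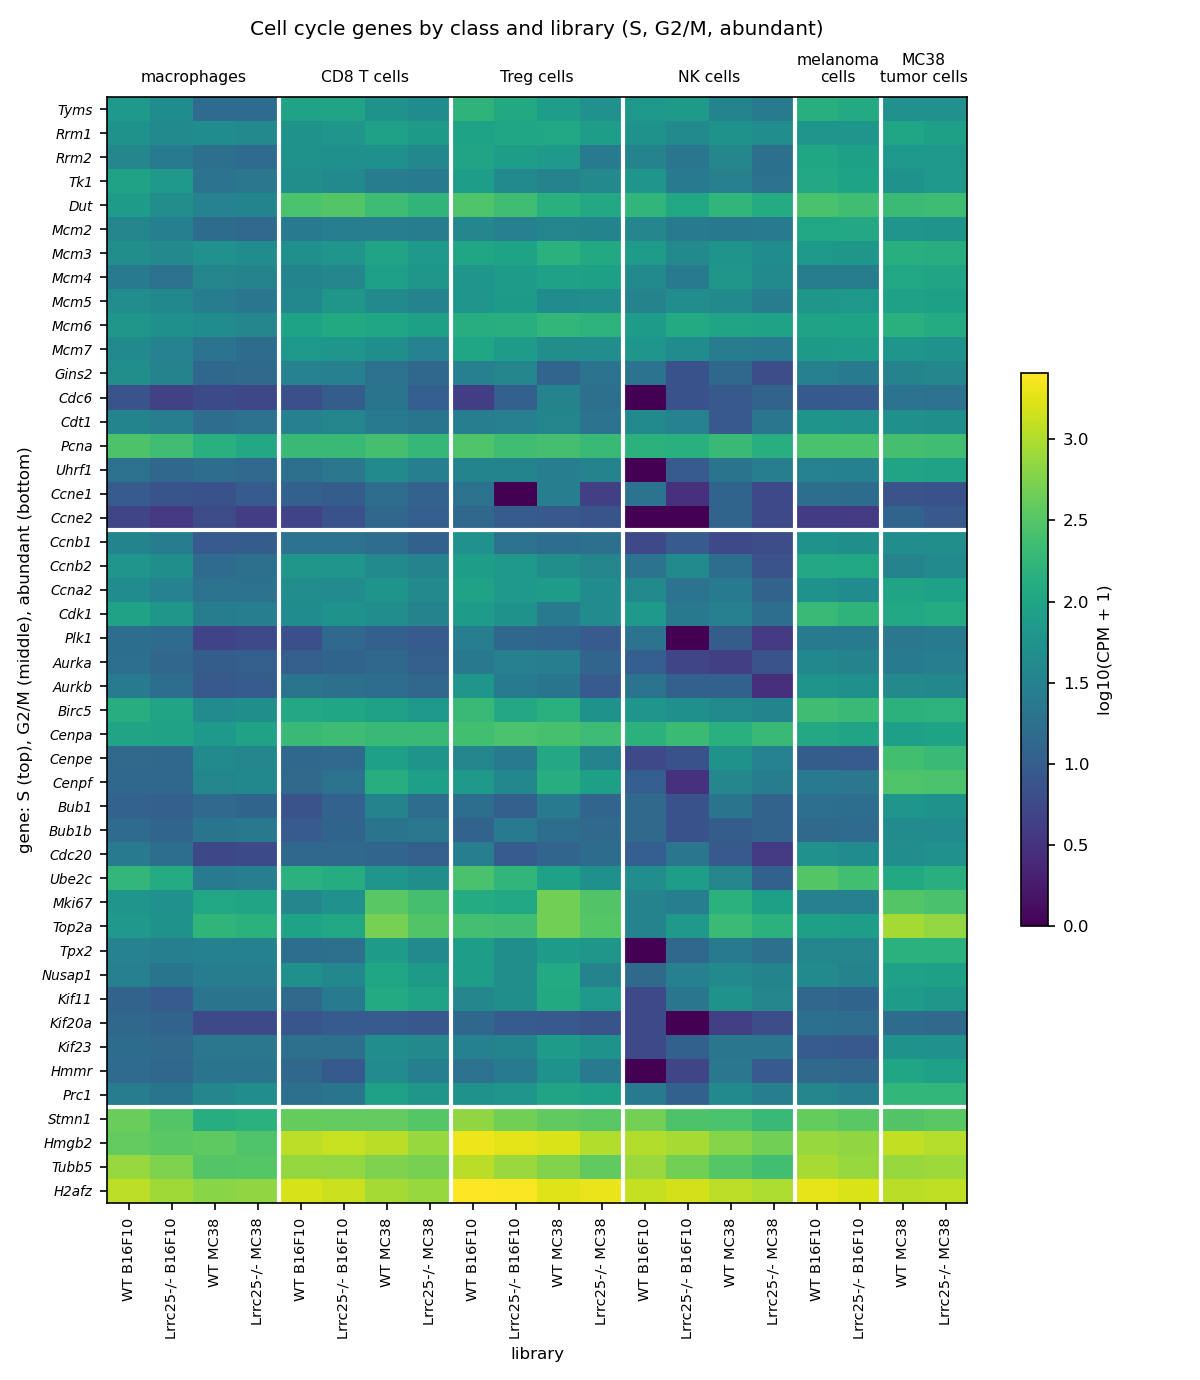
Level of the 46 genes (rows, S above G2/M above abundant genes) in each class and library (columns), as the color of log10(CPM + 1). Hmgb2, Tubb5 and H2afz stand above most members in every class, Mki67, Top2a, Cenpe and Cenpf are brightest in MC38 columns, and the dark cells in NK columns are genes with no UMI in small classes.

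Macrophages of the Lrrc25-/- pool had lower member RNA in B16F10. In MC38 the sum over all members was nearly equal, while the S genes were lower. In B16F10 the 18 S genes summed to 981 CPM in the WT pool and 738 CPM in the Lrrc25-/- pool, a ratio of 0.753 (0.740 to 0.765). The 24 G2/M genes summed to 1030 and 806 CPM, a ratio of 0.783 (0.770 to 0.795). In MC38 the S genes summed to 519 and 459 CPM, a ratio of 0.884 (0.867 to 0.901), and the G2/M genes to 768 and 786 CPM, a ratio of 1.02 (1.01 to 1.04) that was below 1, at 0.990, when clusters replaced gates. These values rest on 3267 and 3631 macrophages in B16F10 and 8039 and 7551 in MC38.

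By gene, a size rule was used: at least 20 CPM in either pool, at least 50 UMIs in all, and at least 1.5-fold between pools after adding 1 CPM. In B16F10 macrophages 32 members had the counts for it, all 32 had a negative log2 fold, and 4 were lower under the rule, against 0.706% of the 4676 genes measured. None was higher, against 3.34% of all genes. Their median log2 fold was -0.39, that of all genes 0.02. The nucleotide enzymes made up 3 of the 4. Dut, which removes dUTP, measured 76.0 CPM in WT and 47.2 CPM in Lrrc25-/- macrophages (ratio 0.621, 0.583 to 0.661), Tyms, thymidylate synthase, 68.4 and 44.4 CPM, and Rrm2, the small subunit of ribonucleotide reductase, 36.2 and 23.3 CPM. The other was Aurkb, the kinase of the chromosomal passenger complex, at 24.95 and 15.8 CPM. All 8 measured origin and helicase genes had negative folds without passing the rule, from -0.53 to -0.26, as did the 6 measured cyclins and mitotic kinases (-0.63 to -0.27, Aurkb among them). In MC38 macrophages 25 members had the counts, 0 were lower or higher, against 2.47% and 0.748% of 5750 genes, and 14 had positive and 11 negative folds.

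Melanoma markers (7 of 7 with UMIs) summed to 407 CPM in WT and 281 CPM in Lrrc25-/- B16F10 macrophages, against 11942 and 15194 CPM in the melanoma cells of those libraries. In MC38 macrophages the MC38 tumor cell list summed to 21.2 and 26.0 CPM, with 4 and 5 of 8 markers seen, against 1456 and 1487 CPM in MC38 tumor cells. The part of tumor cell RNA in these member levels was not tested. Macrophage clusters, built without the members, also differed in size. The cluster with the most B16F10 macrophages held 75.9% of them in the WT and 59.3% in the Lrrc25-/- pool and had S genes at 1124 and 980 CPM. The next held 18.1% and 32.5%, with S genes at 445 and 311 CPM. Weighted to the WT mix of clusters, the ratio of Lrrc25-/- to WT was 0.854 for S and 0.914 for G2/M genes in B16F10, and 0.813 and 0.901 in MC38, where the G2/M ratio thus turned below 1.

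CD8 T cells had lower member RNA in the Lrrc25-/- pool of MC38 and differed little in B16F10. In MC38 the S genes summed to 1223 CPM in WT and 925 CPM in Lrrc25-/- cells, a ratio of 0.756 (0.724 to 0.790), and the G2/M genes to 2145 and 1532 CPM, a ratio of 0.714 (0.690 to 0.739). In B16F10 the S genes summed to 1122 and 1219 CPM, a ratio of 1.09 (1.03 to 1.15) that turned to 0.998 with TMM scaling and 0.879 with clusters, and the G2/M genes to 984 and 1028 CPM, a ratio of 1.04 (0.984 to 1.11). The classes held 206 and 628 cells in B16F10 and 584 and 891 in MC38.

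In MC38 CD8 T cells 36 members had the counts, 35 had negative folds, and 5 were lower under the size rule, against 4.76% of 6172 genes. None was higher, against 4% of all genes. The median log2 fold was -0.40 over these members and -0.04 over all genes. Bub1, a kinase of the spindle checkpoint, measured 32.0 and 15.2 CPM (98 and 71 UMIs; ratio 0.476, 0.346 to 0.653). Tpx2, which activates Aurora A on the spindle, measured 71.8 and 41.6 CPM, Top2a 504 and 301 CPM (ratio 0.598, 0.556 to 0.643), Cenpf, a kinetochore protein, 131 and 82.3 CPM, and Mcm7 of the helicase 48.6 and 30.9 CPM. So 4 of the 5 were G2/M genes. These 4 genes are 30.7 to 47.5 kb long, against a median of 13.7 kb over the members. The part of gene length was not tested. In B16F10 CD8 T cells 30 members had the counts and 2 were higher and 0 lower, against 11.4% and 4.2% of 5117 genes: Mcm5 at 37.5 and 61.6 CPM, and Kif11, the motor that separates spindle poles, at 14.2 and 25.4 CPM (22 and 91 UMIs). Members' median fold there was 0.11, as was that of all genes.

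In the same MC38 CD8 T cells, the macrophage marker list (9 of 9 with UMIs) summed to 136 CPM in the WT and 258 CPM in the Lrrc25-/- pool, and the dendritic cell list to 159 CPM (4 of 7) and 319 CPM (6 of 7). Their part in the difference was not tested. Within MC38, the CD8 T cell cluster led by histone genes (Hist1h1b and others) made up 21.3% of WT and 12.1% of Lrrc25-/- CD8 T cells, and a cluster with Xcl1 and Ccl1 among its leading genes 16.2% and 36.3%. G2/M genes stood at 5031 and 5157 CPM in the histone cluster, and at 2098 and 1040 CPM in the Xcl1 and Ccl1 cluster.

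Treg and NK classes were small, and their members were mostly lower in Lrrc25-/- pools. Treg cells numbered 57, 97, 48 and 123. Their G2/M genes summed to 1935 and 1545 CPM in B16F10 (Lrrc25-/- over WT 0.798, interval 0.737 to 0.865). The MC38 Treg sums were 2503 and 1601 CPM (0.640, interval 0.578 to 0.709). For the S genes the B16F10 ratio was 0.850 (0.780 to 0.927), turning to 1.03 with clusters, and the MC38 ratio was 0.794 (0.696 to 0.908). In B16F10 Treg cells 7 of 29 measured members were lower under the rule and 0 higher, against 6.09% and 14.8% of 3283 genes. Aurkb measured 59.7 and 25.3 CPM there on 37 and 20 UMIs, Birc5 (survivin, a partner of Aurkb) 200 and 113 CPM, and Ube2c, a ubiquitin-conjugating enzyme of the anaphase-promoting complex, 264 and 172 CPM. Tk1, Cenpf, Nusap1 and Tpx2 were the other members lower, at log2 folds of -0.92, -0.79, -0.71 and -0.64.

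In MC38 Treg cells 9 of 21 measured members were lower and 0 higher, against 7.49% and 7.97% of 3086 genes. Birc5 measured 143 and 55.7 CPM (36 and 33 UMIs), Hmgb2, a chromatin protein, 1630 and 1011 CPM, Mki67 470 and 302 CPM and Top2a 482 and 317 CPM. Kif11, Tubb5, Ube2c, Cenpf and Tyms also passed, and the counting intervals of the ratios of Ube2c, Cenpf and Tyms reached above 1. Birc5, Cenpf and Ube2c passed the rule in Treg cells of both models. In the Treg cells the macrophage list summed to 359.6 and 260 CPM in B16F10 and 151 and 248 CPM in MC38, and the fibroblast list to 559.6 and 10.1 CPM in B16F10. Their part in these differences was not tested.

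NK cells numbered 70, 125, 133 and 193. For S genes the B16F10 ratio was 0.817 (0.686 to 0.975) and the MC38 ratio 0.767 (0.693 to 0.849). The G2/M genes gave 1.104 (0.898 to 1.36) and 0.750 (0.681 to 0.826). In MC38, 6 of 22 measured members were lower and 0 higher, against 5.16% and 11.3% of 4906 genes, with a median log2 fold of -0.47 against 0.08 for all genes. Rrm2 measured 36.7 and 16.8 CPM (32 and 18 UMIs), Mki67 147 and 84.0 CPM, and Cenpe, a kinetochore motor, 52.8 and 31.7 CPM. Mcm4, Mcm5 and Kif11 were the other 3. The macrophage list summed to 101 and 221 CPM in these cells, and its part was not tested. In B16F10 only 8 members had the counts. Stmn1, Dut and Tubb5 were lower and Mcm6 was higher (16 and 57 UMIs), against 6.83% and 11.1% of 1641 genes. The fibroblast list summed to 9.26 CPM in the WT and 947 CPM in the Lrrc25-/- NK cells of B16F10, and its part was not tested.

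The tumor cells showed small differences. In melanoma cells S genes summed to 1505 CPM in the WT and 1417 CPM in the Lrrc25-/- host (ratio 0.941, 0.933 to 0.9502) and G2/M genes to 1581 and 1356 CPM (0.858, 0.850 to 0.866). In MC38 tumor cells the sums were 1543 and 1475 CPM for S (0.956, 0.945 to 0.968) and 3253 and 2999 CPM for G2/M (0.922, 0.914 to 0.930). Under the size rule 0 of 36 members measured in melanoma cells passed in either direction, against 2.18% of 4581 genes higher and 0.24% lower. In MC38 tumor cells it was 0 of 42, against 0.804% and 0.726% of 6470 genes. The widest member folds were -0.38 in melanoma and -0.32 (Top2a, 883 and 707 CPM) in MC38 tumor cells.

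**Figure D2:**
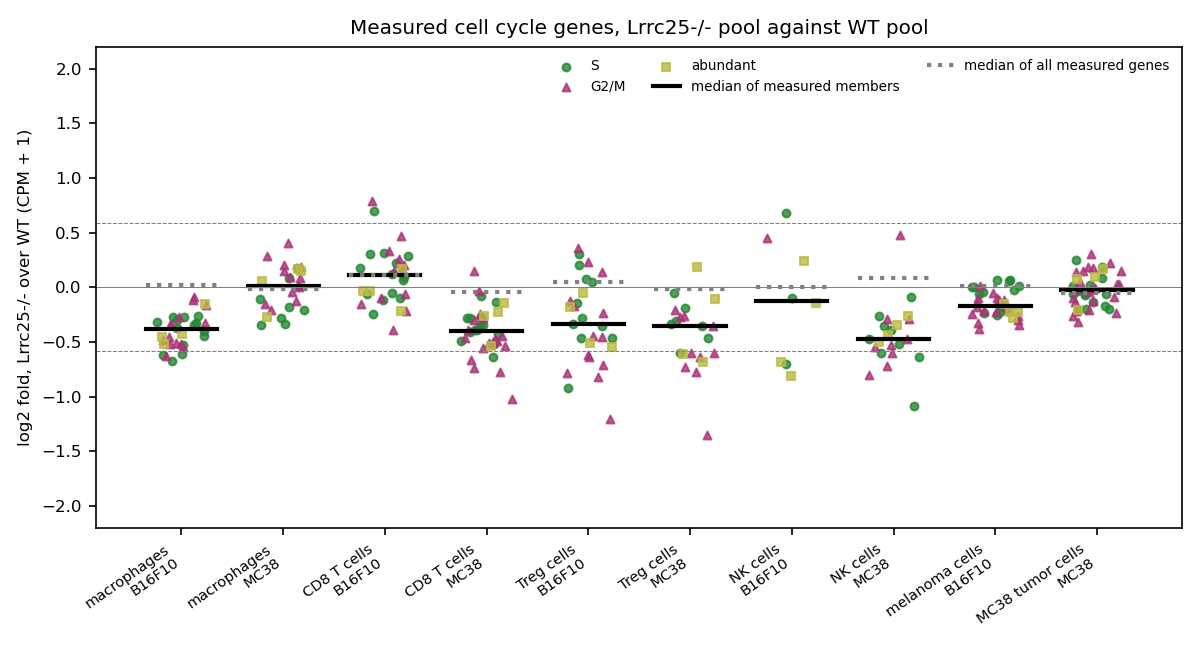
Log2 fold of Lrrc25-/- over WT (after adding 1 CPM) for each measured member, by class and tumor model; black bars are the medians of measured members, dotted bars those of all measured genes, dashed lines the 1.5-fold limit. Every point of B16F10 macrophages lies below 0, and 35 of 36 do in MC38 CD8 T cells, while the points of MC38 macrophages and of MC38 tumor cells lie on both sides of 0.

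The replicated test of genotype set both Lrrc25-/- libraries against both WT libraries in each class, with tumor model as a second term (edgeR, quasi-likelihood F-test, Benjamini-Hochberg adjustment over all genes tested, threshold 0.05). Of 46 members tested in macrophages, 46 in CD8 T cells, 40 in Treg cells and 33 in NK cells, edgeR called 0, 0, 1 and 0, against 0.209%, 0%, 0.259% and 0.0447% of all genes tested. At an unadjusted p under 0.05 edgeR had 4, 2, 10 and 8 members, against 637 of 14862, 407 of 10450, 383 of 6562 and 348 of 6717 genes. The 2 of 46 in CD8 T cells are near the share of all genes. DESeq2 called 0 in each class, against 0.0875%, 0%, 0% and 0.0447% of all genes, with 0, 0, 4 and 1 members at an unadjusted p under 0.05, against 199, 56, 35 and 39 genes of the same numbers tested. The Treg gene was Ccne1 (cyclin E1, which drives entry into S phase), with a log2 fold of -3.79 (SE 0.87, adjusted p = 0.0110). Its UMIs were 11 and 7 in the WT B16F10 and MC38 pools and 0 and 2 in the Lrrc25-/- pools. With so few UMIs the fitted fold depends on the prior count of the fit. Nusap1, a microtubule-bundling protein, and Birc5 came next in Treg cells, at -1.24 (SE 0.33) and -1.07 (SE 0.29), both with an adjusted p of 0.0573, over the threshold.

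The fitted genotype fold was negative for 42 of 46 members in macrophages, 42 of 46 in CD8 T cells, 35 of 40 in Treg cells and 28 of 33 in NK cells. Median log2 folds of the members were -0.20, -0.22, -0.35 and -0.31, and those of all genes -0.02, -0.01, 0.01 and 0.01. The models were not alike in macrophages, where 32 of 32 measured members had negative folds in B16F10 and 11 of 25 in MC38. In CD8 T cells it was 13 of 30 in B16F10 and 35 of 36 in MC38. Treg cells had 22 of 29 and 20 of 21, and NK cells 5 of 8 and 21 of 22. In simulated counts of these classes the test called 43.0% to 65.7% of genes altered 2-fold and 92.0% to 98.0% of those altered 4-fold. The altered genes were drawn from those above a minimum mean count and had the same fold in both models. These shares therefore do not cover members with few UMIs, such as Ccne1 in Treg cells, or folds that differ between the models. With 1 residual degree of freedom, a difference that is unlike in the 2 models counts as error.

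Cells were called cycling when Mki67 and Top2a together had 2 or more UMIs after each cell was thinned to 2000 UMIs, with shallower cells left out. In MC38 CD8 T cells the share was 24.5% in the WT pool (136 of 555 cells, 21.0 to 28.3) and 12.8% in the Lrrc25-/- pool (109 of 852, 10.6 to 15.2), a ratio of 0.522 (0.402 to 0.677). In MC38 NK cells it was 12.5% (15 of 120) and 4.55% (8 of 176), a ratio of 0.364 (0.134 to 0.914). The NK interval reached above 1 under a stricter gate (0.403, 0.120 to 1.22), with clusters (0.590, 0.301 to 1.155), at 3000 UMIs (0.537, 0.238 to 1.17) and with 1 or more UMIs as the call (0.620, 0.365 to 1.05). In Treg cells it was 38.1% (16 of 42) and 18.8% (21 of 112) in MC38 (ratio 0.492, 0.245 to 1.01), and 21.8% (12 of 55) and 12.9% (12 of 93) in B16F10 (0.591, 0.243 to 1.44), where clusters gave 1.26. Both Treg intervals reach above 1, and the pools of the other comparisons were not distinguishable by this call at this depth either. B16F10 macrophages gave 4.02% and 3.69%, a ratio of 0.917 (0.709 to 1.19) that turned to 1.11 at the WT mix of clusters. MC38 macrophages gave 9.78% and 8.99%, a ratio of 0.920 (0.822 to 1.03), or 0.833 at the WT mix. CD8 T cells gave 3.80% (7 of 184) and 3.99% (19 of 476) in B16F10. Melanoma cells gave 3.88% and 3.37% (0.870, 0.621 to 1.21), and MC38 tumor cells 41.7% and 38.2% (0.916, 0.821 to 1.02). NK cells of B16F10 gave 0 of 33 and 2 of 74. The 0 of 33 allows a share of up to 9.09% (3 of 33, the limit used here for a count of 0). Other cuts at 2000 UMIs put some intervals below 1. With 1 or more UMIs the ratio was 0.7785 (0.679 to 0.892) in B16F10 and 0.901 (0.833 to 0.975) in MC38 macrophages. With 3 or more UMIs it was 0.6135 (0.380 to 0.977) and 0.861 (0.7485 to 0.989), and 0.875 (0.771 to 0.992) in MC38 tumor cells. The intervals of melanoma cells and B16F10 CD8 T cells still included 1.

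Neutrophils gave 0 cycling cells of 9, 36, 10 and 13, which by the same limit of 3 cells allows up to 33.3%, 8.33%, 30% and 23.1%. Without thinning, the 4 neutrophil pools gave 0 of 39, 0 of 200, 0 of 78 and 1 of 146 cells. The unthinned share in MC38 CD8 T cells was 32.9% and 21.7%, in MC38 NK cells 27.8% and 10.9%, in MC38 Treg cells 41.7% and 26.0%, in B16F10 Treg cells 56.1% and 28.9%, in B16F10 macrophages 19.3% and 16.3%, and in MC38 macrophages 15.6% and 17.0%. Median UMIs per cell were 4630 and 4395 in MC38 CD8 T cells and 4741 and 6439 in MC38 macrophages. The call is a point on a range: in WT MC38 CD8 T cells 79 of 555 cells had 1 UMI of the 2 genes, 30 had 2 and 106 had 3 or more.

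A second call used the other 22 G2/M genes, with 4 or more UMIs at the same depth. MC38 CD8 T cells then gave 19.8% in the WT and 11.0% in the Lrrc25-/- pool, and MC38 Treg cells 26.2% and 11.6% (ratio 0.443, 0.183 to 1.09). B16F10 Treg cells gave 32.7% and 11.8%, a ratio of 0.361 (0.154 to 0.808), below 1 where the call by Mki67 and Top2a did not separate the pools. MC38 NK cells gave 10% and 5.11%, a ratio of 0.511 whose interval (0.190 to 1.32) reached above 1. B16F10 macrophages gave 14.1% (12.9 to 15.3) and 10.7% (9.65 to 11.8), whose intervals did not overlap, and MC38 macrophages 7.497% and 7.55%. By this call more macrophages were cycling in B16F10 than in MC38 in both genotypes, the reverse of the order by Mki67 and Top2a. Melanoma cells gave 26.5% and 22.6% by this call, a ratio of 0.853 (0.753 to 0.965). MC38 tumor cells gave 34.6% and 32.7%, a ratio of 0.944 (0.838 to 1.06). Mki67 and Top2a made up 7.22% to 21.6% of the G2/M UMIs in the B16F10 classes and 30.4% to 39.5% in the MC38 classes.

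**Figure D3:**
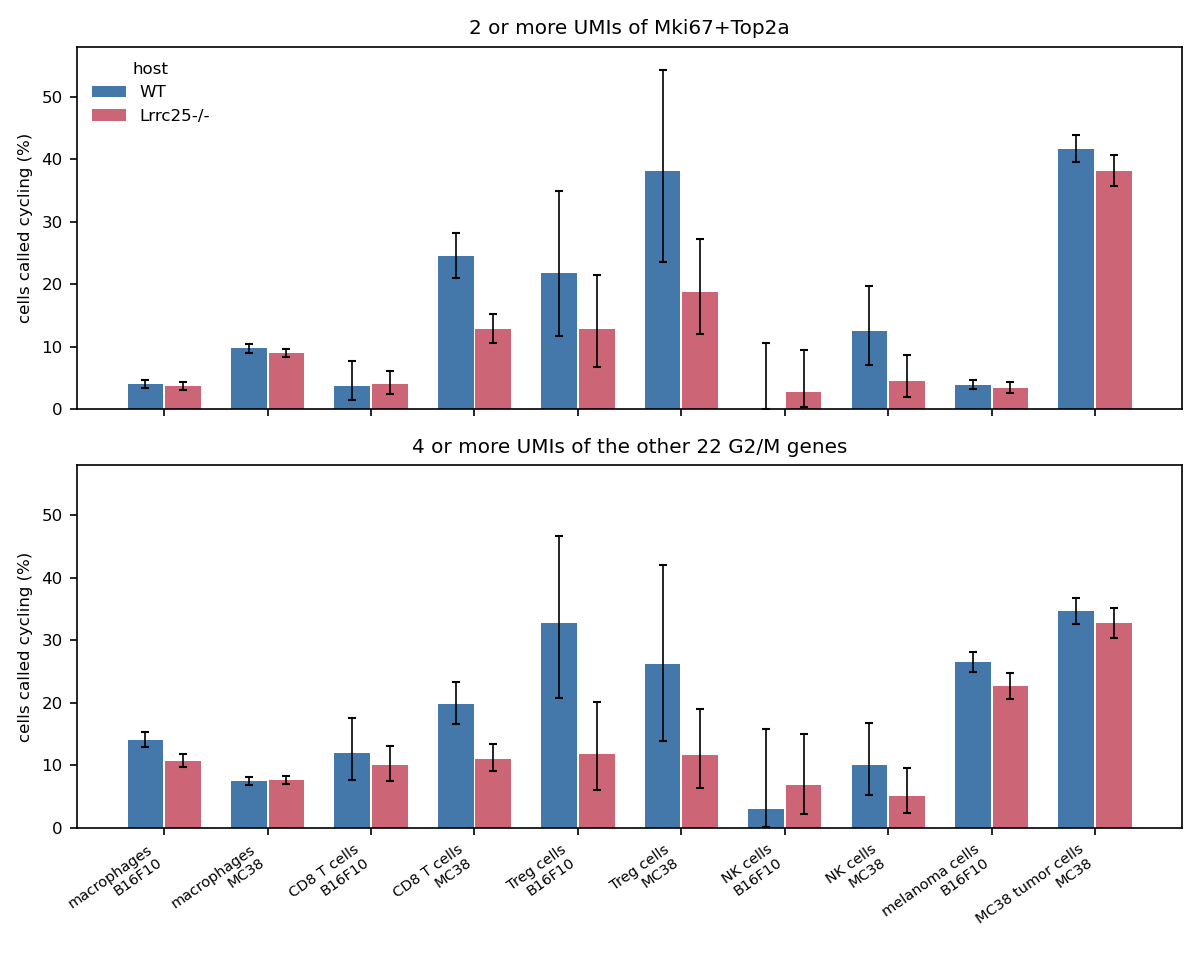
Share of cells called cycling (%) by class and tumor model in the WT (blue) and Lrrc25-/- (red) pools, from Mki67 and Top2a (upper) and from the other 22 G2/M genes (lower), with exact binomial 95% intervals. In MC38 CD8 T cells the bars stand at 24.5% and 12.8% in the upper and 19.8% and 11.0% in the lower plot, and melanoma cells are near 4% in the upper and above 20% in the lower.

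Cells called cycling by Mki67 and Top2a carried other member RNA too. In macrophages the 22 other G2/M genes summed to 3051, 3006, 2341 and 2676 CPM in cycling cells and to 795, 601, 242 and 266 CPM in the rest. S genes summed to 1795, 1689, 1441 and 1426 CPM in cycling macrophages and 941, 697, 391 and 334 CPM in the rest. The level in cycling cells of MC38 CD8 T cells was alike in the pools, at 2153 and 2080 CPM for S genes and 3289 and 3229 CPM for the 22 G2/M genes. In their other cells the S genes stood at 816 and 627 CPM and the 22 G2/M genes at 410 and 408 CPM. Among macrophages, the members with the largest share of their UMIs in cycling cells, as a median over libraries, were Top2a (49.5%), Prc1 (48.2%), Cenpf (48.2%) and Mki67 (48.0%). The libraries differed widely, with Top2a at 25.9% to 70.3%, Prc1 at 25.3% to 72.1%, Cenpf at 28.0% to 69.2% and Mki67 at 25.8% to 73.3%, so the order among them carries no weight. Top2a and Mki67 define the call. Prc1 bundles the microtubules of the central spindle. Those with the smallest share were Mcm4 (14.8%), Mcm2 (16.2%), Cenpa (16.4%), the histone variant of centromeres, and Pcna (16.6%), so 3 of these 4 were S genes.

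The same members were compared between tumor models, a contrast that cannot be told apart from the tumor line, the day of collection and the libraries. In edgeR's test over the 4 libraries of a class, 36 of 46 members differed in macrophages, 6 higher in MC38 and 30 lower, against 65.6% of all genes. In CD8 T cells it was 30 of 46 (10 higher, 20 lower) against 50.1%, in Treg cells 21 of 40 (1 higher, 20 lower) against 47.5%, and in NK cells 14 of 33 (4 higher, 10 lower) against 33.8%. Over all genes the split was even, at 33.7% higher and 31.9% lower in macrophages, 25.3% and 24.8% in CD8 T cells, 23.8% and 23.7% in Treg cells and 17.4% and 16.5% in NK cells. The genes lower in MC38 macrophages were led by Ube2c (log2 -2.88, SE 0.20), Tyms (-2.32, SE 0.18), Tk1, thymidine kinase (-2.36, SE 0.18), and the cyclins Ccnb2 and Ccnb1 (both -2.17), with adjusted p from 2.5e-13 to 9.7e-12. Cdc20, the activator of the anaphase-promoting complex, fell by 2.46, Plk1 by 2.24 and Gins2 by 1.94. The 6 higher genes were Cenpf (1.13), Cenpe (1.12), Top2a (1.02), Kif11 (0.57), Mki67 (0.44) and Prc1 (0.44), all of them G2/M genes.

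By role, all 8 cyclins and mitotic kinases, all 5 nucleotide enzymes and 6 of 9 origin and helicase genes were lower in MC38 macrophages, while of 9 spindle and chromosome genes 4 were higher and 2 lower. In CD8 T cells 7 of the 9 spindle and chromosome genes were higher in MC38 and none was lower, with Mki67 at 2.26 (SE 0.24, adjusted p = 0.0010), Prc1 at 1.48 and Top2a at 1.499. Cenpf (2.18) and Cenpe (1.89) of the kinetochore were higher as well. Ube2c (-1.81), Tyms (-1.39) and Ccnb2 (-1.21) were lower, as in macrophages. Mki67 was the member higher in MC38 Treg cells (1.14, SE 0.28), and in NK cells Cenpe (2.42), Cenpf (2.41), Mki67 (1.56) and Top2a (1.36) were higher.

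The direction went with the length of the gene. The members' genomic spans (GENCODE M21, GRCm38) ran from 2.44 to 61.1 kb, with a median of 13.7 kb. Across measured members, Spearman's rho of span against the WT log2 ratio of MC38 over B16F10 was 0.54 in macrophages (35 genes), 0.75 in CD8 T cells (36), 0.61 in Treg cells (28) and 0.58 in NK cells (13). In the Lrrc25-/- libraries it was 0.55, 0.67, 0.60 and 0.54. Over all measured genes the WT libraries gave 0.65 to 0.71. In WT macrophages the members up to the median span had a median log2 ratio of -1.27 and the longer ones -0.10, and in WT CD8 T cells -0.27 and 1.32. Genes are not independent replicates, and each point shares the same pair of libraries. Malat1, a nuclear RNA, stood at 590 to 1450 CPM in B16F10 classes and 5602 to 13325 CPM in MC38 classes, and mitochondrial genes took 0.401% to 0.992% and 1.86% to 3.38% of UMIs. Folds of Lrrc25-/- over WT within a model also moved with span in several classes. Over all measured genes rho was 0.34 in B16F10 and -0.33 in MC38 macrophages, and -0.50 in MC38 tumor cells. It ran from 0.11 to 0.35 over the B16F10 classes and from -0.50 to 0.16 over those of MC38. Across members rho ran from 0.10 to 0.50 in B16F10 and from -0.44 to -0.13 in MC38. The part of gene length, nuclear RNA and mitochondrial RNA in the model and genotype differences was not tested.

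**Figure D4:**
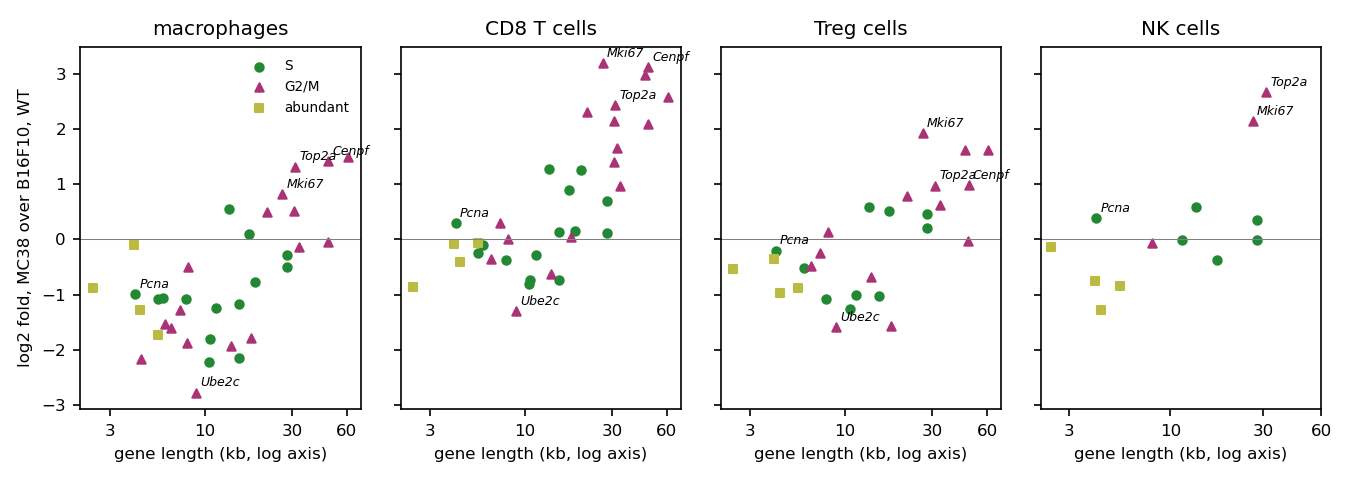
Log2 fold of WT MC38 over WT B16F10 for each measured member against its gene length (kb, log axis) in 4 immune classes, with S, G2/M and abundant genes as separate symbols. Ube2c, a short gene, lies below 0 and the longer Mki67, Top2a and Cenpf lie above it in macrophages, CD8 T cells and Treg cells.

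S and G2/M genes also took different shares in the models. The S genes were 45.6% to 60.7% of S and G2/M UMIs in the B16F10 classes other than neutrophils and 32.2% to 47.7% in those of MC38. The neutrophils, with 8 to 52 UMIs of S genes, ranged from 24.5% to 56.5%. With a phase call of 4 or more UMIs of a set at 2000 UMIs, cells with S genes alone were 12.1%, 7.41%, 3.33% and 2.26% of macrophages and cells with G2/M genes alone 11.2%, 8.10%, 7.08% and 7.66%. In MC38 CD8 T cells, S alone gave 7.57% in the WT and 3.40% in the Lrrc25-/- pool, both sets 13.3% and 7.39%, and G2/M alone 10.6% and 7.28%.

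Between immune classes of the same library, the members called in T cells against macrophages were all higher in the T cells. In edgeR's test over 16 sums (4 classes in 4 libraries, library as a term), CD8 T cells had 13 of 46 members higher than macrophages and none lower, against 56.3% of all genes called in either direction (26.3% higher, 29.9% lower). The share of members higher is thus near that of all genes. All 13 were higher in each of the 4 libraries. Dut (log2 2.17, SE 0.24, adjusted p = 1.3e-06), Kif11 (1.54, SE 0.28), Hmgb2 (1.40, SE 0.14) and Cenpa (1.02, SE 0.15) led, with Tyms (0.99), Mcm6 (0.81), Mcm7 (0.77) and Mcm4 (0.72). Treg cells had 20 of 46 higher and none lower, against 50.1% of all genes (22.2% higher, 27.9% lower), all 20 in each of the 4 libraries. Hmgb2 (1.82, SE 0.14), Dut (1.67), Mcm6 (1.25), Cenpa (1.13), Mcm4 (1.14), Mcm7 (1.00), Mcm3 (0.92) and Tyms (1.28) had the lowest adjusted p, from 6.3e-08 to 0.00015.

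NK cells were split against macrophages, with 4 members higher and 11 lower against 47.6% of all genes (20.1% higher, 27.5% lower), and 10 of the 15 kept 1 direction in all 4 libraries. Dut (1.48), Hmgb2 (0.80), Cenpa (0.80) and Mcm6 (0.77) were higher. Gins2 (-1.38), Birc5 (-0.91), Ccnb1 (-1.59) and Aurka (-1.27) led the lower genes, 9 of which were G2/M genes. With clusters in place of gates the split was 8 higher and 1 lower, against 53.2% of all genes called. CD8 T cells against Treg cells differed in 2 members, H2afz (-0.82, SE 0.18) and Mcm3 (-0.60, SE 0.15), against 6.64% of all genes (3.28% higher, 3.37% lower). CD8 T cells had 9 members higher than NK cells, against 6.44% of all genes (2.96% higher, 3.48% lower): Hmgb2 (0.60), Ccnb2 (1.31), Cenpf (1.499), Ccna2 (1.12), Birc5 (0.98), Tubb5 (0.64), Kif23 (0.91), Top2a (0.99) and Ube2c (1.19). The last of these counts was 0 without the Lrrc25-/- MC38 library (2.26% of all genes called) and 1 without the Lrrc25-/- B16F10 library (4.35%).

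Other genes of the cycle, listed apart from the members, were set against the same size rule. In MC38 CD8 T cells 7 of 19 other S phase genes and 9 of 23 other G2/M genes with the counts were lower under the size rule, 0 were higher, and the median log2 folds were -0.49 and -0.45. In MC38 NK cells 3 of 11 and 4 of 7 were lower and none higher, in B16F10 macrophages 1 of 10 (Rpa2) and 0 of 12, and in MC38 macrophages 0 of 7 and 2 of 11 (Ckap2l at 45.0 and 27.3 CPM, Smc4 at 148 and 96.7 CPM). Over all measured genes the shares lower were 4.76%, 5.16%, 0.706% and 2.47% in these 4 comparisons. In B16F10 CD8 T cells 2 of 15 and 0 of 12 were higher and none lower, against 11.4% and 4.2% of genes. In B16F10 Treg cells 2 of 11 and 0 of 11 were higher, against 14.8%, and 2 of 11 and 2 of 11 lower, against 6.09%. In MC38 Treg cells 3 of 6 and 2 of 4 were lower and none higher, against 7.49% and 7.97%. In B16F10 NK cells 1 of 1 and 0 of 2 were lower, against 6.83%. The cell cycle kinase gene Cdk6 (142 and 92.2 CPM) and Ccnd2 (80.3 and 44.6 CPM) were also lower in MC38 macrophages. Of 12 listed inhibitors of the cycle, 8 had the counts in MC38 CD8 T cells. Of these, 3 were higher under the rule and none lower, against 4% and 4.76% of 6172 genes. Dtl, which marks Cdt1 and p21 for destruction, passed in CD8 T cells of both models in opposite directions, at 15.5 and 27.0 CPM in B16F10 and 84.1 and 54.5 CPM in MC38. Hells, a chromatin remodeler, did so in Treg cells, at 38.7 and 62.0 CPM and 103.6 and 43.9 CPM. In edgeR's test of genotype 0 genes of these lists were called in any class.

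Between classes, 17 of 25 other S phase genes and 15 of 30 other G2/M genes were higher in CD8 T cells than in macrophages, with 0 and 1 lower, against 26.3% of all genes higher and 29.9% lower. The G1 regulators differed gene by gene. Cyclin D1 (Ccnd1) was lower in CD8 T cells by a log2 fold of -3.42 (SE 0.24), cyclins D2 (Ccnd2, 1.99) and D3 (Ccnd3, 1.64) were higher, and so were the pocket protein Rbl2 (1.99) and the inhibitor Cdkn2a (2.37), while Cdkn1a (p21) was lower (-2.57). E2f7, a repressor of E2F targets, was higher (2.12, SE 0.33) and E2f1 lower (-0.90). Between models, Myc fell by 2.46 and Cdk4 by 1.66 in MC38 macrophages, and Ccnd2 (1.52), Rbl2 (1.58) and Lin54 (2.11), a subunit of the complex that binds the CHR, were higher.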

How the data were processed

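Single-cell RNA libraries of 4 tumor pools were deposited by the authors as unnormalized UMI counts per gene and barcode. The genome build is mm10 per the submitters' processing notes, and no source used here names the aligner or the counting program. Groups follow the sample titles, with 1 library in each, and sequencing gave 105338548 to 138841749 UMIs per library. Since each library pools 3 mice, p-values measure only the spread between these pools.

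Barcodes with under 500 UMIs, under 300 genes or over 20% mitochondrial UMIs were dropped. The barcodes with the highest Scrublet scores (scanpy 1.11.5) were removed as likely doublets, at 0.5% per 1000 barcodes, without a score threshold. Gates were counts of marker UMIs in cells with at least 1000 UMIs, so shallower kept cells fell into no gate. Macrophages needed 3 C1q UMIs and a minimum share of marker UMIs, and T cells 3 UMIs of their list with 1 more of CD8 or Foxp3. NK cells needed 1 UMI, melanoma cells 10 UMIs, MC38 tumor cells 5 UMIs and neutrophils 10 UMIs, with limits on UMIs of other lineages. Leiden clusters (igraph 0.11.9, resolution 1, 2000 variable genes, 40 components, 15 neighbours), built without the members and the other cell cycle lists, were the alternative. Gate thresholds were revised 3 times after cell numbers and marker levels had been seen, and the smallest class size used (40 cells) and the limits for naming clusters were also set after seeing the data.

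UMIs were summed per class and library and divided by the class total (CPM). A count of 0 is given with the limit of 3 counts of the total. Ratios of pools carry exact conditional intervals, other shares exact Clopper-Pearson intervals and counts exact Poisson intervals (scipy 1.17.1). Sums were tested in edgeR 4.0.16 (TMM, filterByExpr, quasi-likelihood F-test) under R 4.3.3, with DESeq2 1.42.0 as an alternative, adjusted over all genes tested. The scripts were tested on simulated data. Gene spans are those of GENCODE M21 on GRCm38, and promoter windows those of RefSeq on GRCm38.p6.

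The members and lists were chosen with earlier results of these data known. Genes named were Mki67, Top2a, Pcna and Mcm5 in every class, up to 8 members per direction past the size rule, the 4 members with the highest and the 4 with the lowest share of UMIs in cycling macrophages, up to 8 members called by edgeR per comparison by adjusted p, and up to 4 genes per other list that passed the size rule in both models or were called by edgeR. Genes named beyond these, such as Rpa2, were chosen after their values were seen. Alternatives covered scaling, gates, doublets, depth, the cycling call, low-count filters, the tool and left-out libraries.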

Additional observations from a re-analysis of the deposited data

Results flagged for a closer look

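Several gene sums were higher in the Lrrc25-/- than in the WT pool in one tumor model and lower in the other. The S genes of CD8 T cells had a ratio of Lrrc25-/- to WT of 1.09 in B16F10 and 0.756 in MC38. The G2/M genes of macrophages had a ratio of 0.783 in B16F10 and 1.02 in MC38, and the 4 abundant genes there 0.751 and 1.02. The B16F10 ratio of the CD8 S genes turned below 1 with TMM scaling and with clusters. The MC38 ratio of the macrophage G2/M genes turned below 1 with clusters and at the WT mix of clusters. The opposite directions of these S and G2/M sums thus depended on the processing. The G2/M genes of CD8 T cells had ratios of 1.04 and 0.714 and those of NK cells 1.104 and 0.750, where the B16F10 intervals include 1. With 1 pool per genotype and model, the difference between the models was not tested.

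Cells that fell into no marker gate, which the comparisons leave out, also held cycling cells by the call on Mki67 and Top2a. They made up 2.29% of such cells in WT B16F10 (39 of 1701), 1.52% in Lrrc25-/- B16F10 (40 of 2639), 7.44% in WT MC38 (145 of 1948) and 8.37% in Lrrc25-/- MC38 (218 of 2606), and the neutrophils gave 0 of 9, 36, 10 and 13 cells. So few neutrophils allow shares of up to 33.3%, 8.33%, 30% and 23.1%, so this share cannot tell the cells in no gate apart from them. By level, S genes of the cells in no gate summed to 485 to 779 CPM and G2/M genes to 600 to 926 CPM. Both ranges lie above the neutrophil sums given earlier.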

How the results depend on the processing

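No paired analysis was possible because each group has 1 library and the labels number no replicates that groups share. Of the alternatives for the share of cycling cells, 97 kept the ratio of Lrrc25-/- to WT within its counting interval and 6 did not, and for the summed members 25 did and 28 did not. The cause was not tested for any of them. Leaving out shared barcodes, leaving out cluster 13 and holding the WT cluster mix were chosen after seeing the data. Cluster 13 was not named as a macrophage cluster, and it held 2.63% of WT and 3.61% of Lrrc25-/- MC38 macrophages.

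The ratio over all members in B16F10 macrophages (0.758) was 0.721 with TMM, 0.774 with a stricter gate, 0.742 with clusters, 0.752 without shared barcodes and 0.855 at the WT cluster mix. In MC38 macrophages (0.997) it was 1.02 with TMM, 0.986 with a stricter gate, 0.977 with clusters, 1.01 without doublet removal, 0.986 without cluster 13 and 0.902 at the WT mix. In CD8 T cells it was 0.924 with TMM and 0.846 with clusters in B16F10 (1.005), and 0.793 with a stricter gate in MC38 (0.761). In Treg cells TMM gave 0.8035 and clusters 0.952 in B16F10 (0.847), and clusters 0.882 in MC38 (0.783). In NK cells a stricter gate gave 0.691 and clusters 0.711 in B16F10 (0.906), and TMM 0.733, a stricter gate 0.826 and clusters 0.9485 in MC38 (0.777). Melanoma cells (0.875) gave 0.822 with TMM and 0.884 with a stricter gate. MC38 tumor cells (0.959) gave 0.9915 with TMM, 0.9395 with a stricter gate, 0.953 without doublet removal and 0.952 without shared barcodes. Beyond these, ratios of S or G2/M genes that crossed 1 were G2/M genes of MC38 macrophages (0.9905 with clusters, 0.9005 at the WT mix), S genes of B16F10 CD8 T cells (0.998 with TMM, 0.879 with clusters) and S genes of B16F10 Treg cells (1.03 with clusters).

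The ratio of cycling shares was 0.6135 in B16F10 macrophages with 3 or more UMIs, 0.7985 in MC38 macrophages at 3000 UMIs and 1.09 without thinning (0.920 as reported), 0.691 in MC38 CD8 T cells with 1 or more UMIs, 1.48 in B16F10 Treg cells with 3 or more, and 0.505 in melanoma cells at 1000 UMIs.

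Counts of members that differed between models are followed by the share of all genes called. In CD8 T cells DESeq2 gave 19 (27.6%) against 30 with edgeR (50.1%). In Treg cells DESeq2 gave 11 (17.3%) and clusters 32 (50.9%), against 21 (47.5%). In NK cells they gave 5 (10.5%) and 22 (44.4%), against 14 (33.8%). The Treg call between genotypes was 0 with DESeq2 (0%) and with clusters (0.113%). Between classes, CD8 T cells against macrophages gave 23 members with clusters (61.5% of all genes) against 13 (56.3%). Leaving out each library in turn gave 11 to 23 (45.6% to 52.9%), with 23 without WT B16F10 (52.9%). NK cells against macrophages gave 9 with clusters (53.2%) against 15 (47.6%), and 8 to 14 on leaving out libraries (35.5% to 42.1%). CD8 against Treg cells gave 3 with DESeq2 (8.51%) and 2 with clusters (8.24%), in place of 2 (6.64%). Leaving out libraries gave 0 to 1 there (1.62% to 6.12%). Treg cells against macrophages gave 29 with clusters (57.2%) and 18 to 23 on leaving out libraries (40.4% to 44.7%), in place of 20 (50.1%). CD8 T against NK cells gave 19 without a filter (5.18%) and 3 with clusters (8.49%), against 9 (6.44%). On leaving out libraries it gave 0 to 10 (2.26% to 5.74%). In Treg and NK cells 48 to 193 cells a library limit the precision.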

Other observations

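Inhibitors and other regulators of the cycle differed in size between pools as well, and the genes named here were chosen after their values were seen. In MC38 CD8 T cells the inhibitor Cdkn1b (p27) measured 38.5 CPM in WT and 72.3 CPM in Lrrc25-/- cells, and the antiproliferative genes Btg1 and Btg2 368.6 and 616.3 CPM and 104.4 and 189.6 CPM. In MC38 NK cells Btg1 measured 309.9 and 681.3 CPM, Btg2 151.5 and 271.6 CPM and cyclin D3 (Ccnd3) 86.1 and 190.4 CPM. edgeR's test of genotype over both models called none of these genes in CD8 T or NK cells. In tumor cells, Smc4 of condensin measured 641 and 394 CPM in MC38, and Cdkn1a (p21) 251 and 152 CPM in melanoma cells.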
